A study of Mus musculus with 6 samples.

Results

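The 9 genes described here are markers of the formative and primed states of pluripotency: Fgf5, Otx2, Pou3f1, Zic2, Zic5, Sox3, Foxd3, Sall2 and Grhl2. They were chosen by symbol, and each matched 1 of the 43309 Ensembl genes in the deposited count table. The table holds 6 poly(A) RNA libraries (TruSeq, stranded) from mouse embryonic stem cells (mESCs) of strain J1 (129SV), which were grown in medium with serum on gelatin and without feeder cells. Of these, 3 are labelled Zbtb24 wild-type (2lox/+) and are called control here. The other 3 are labelled Zbtb24 knockout (1lox/1lox). Each line is a clone. The control lines also carry a modified allele (2lox), whereas both alleles are recombined (1lox) in the other group, and no cell of the unmodified parent line was compared. Libraries were made from 2 µg of total RNA with 8 cycles of PCR.

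Naive mESCs resemble the epiblast before implantation. On their way to differentiation they go through a formative state, in which they lower naive factors and gain the competence to form the germ layers, and reach a primed state resembling the epiblast after implantation. OTX2 and POU3F1 act early in this change and help to engage enhancers of the new state, GRHL2 maintains enhancers of epithelial genes in it, and FGF5 is a secreted growth factor widely used as its marker. In cultures with serum, single cells differ in these genes, so that a bulk value averages over cells. A smaller number of cells expressing a gene and less RNA per cell cannot be told apart in these libraries.

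Counted fragments ranged from 25042261 to 28838924 per library. Control lines 1 to 3 held 510, 512 and 489 fragments of Zbtb24, the targeted gene, and lines labelled knockout 1 to 3 held 888, 925 and 1039. The log2 fold change was 0.99 ± 0.05 (SE, adjusted p = 4.32e-23). Every adjusted p is that of the quasi-likelihood test in edgeR, adjusted after Benjamini and Hochberg over all genes tested. This count covers the whole gene and cannot show whether the recombined part was absent. It was higher, not lower, in the lines labelled knockout, and does not settle whether the label holds. For this reason the group is named as labelled knockout wherever a direction is given. The 7 core pluripotency genes listed for the check of the cell type were abundant in both groups. Pou5f1, which encodes the central pluripotency factor OCT4, had 1146 ± 24.2 counts per 1000000 after TMM scaling (cpm) in control lines and 1315 ± 15.9 cpm in lines labelled knockout (SD, n = 3 each).

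All 9 markers reached 10 counts in 1 or more libraries, the filter for testing, and all 9 were called at an adjusted p (FDR) of 0.05 or less, against 69.5% of the 16823 genes tested. In the lines labelled knockout, 7 of the 9 markers were lower (background 35.2%) and 2 were higher (background 34.4%). The median log2 fold change of the 9 was -1.46, and that of all genes tested was -0.0004. In 5 of the 9 the fall was at least 1 on the log2 scale, which 11.8% of all genes tested reached. No marker rose by that much in this fit (background 5.21%), whereas Zic2 rose by 1.25 with an offset for GC content and length. Between the groups, normalized values were apart in each of the 9 markers (background 71.5%). The falls were largest in Fgf5, Pou3f1 and Grhl2, and the 2 rises were in the neighbouring genes Zic2 and Zic5.

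**Figure D1:**
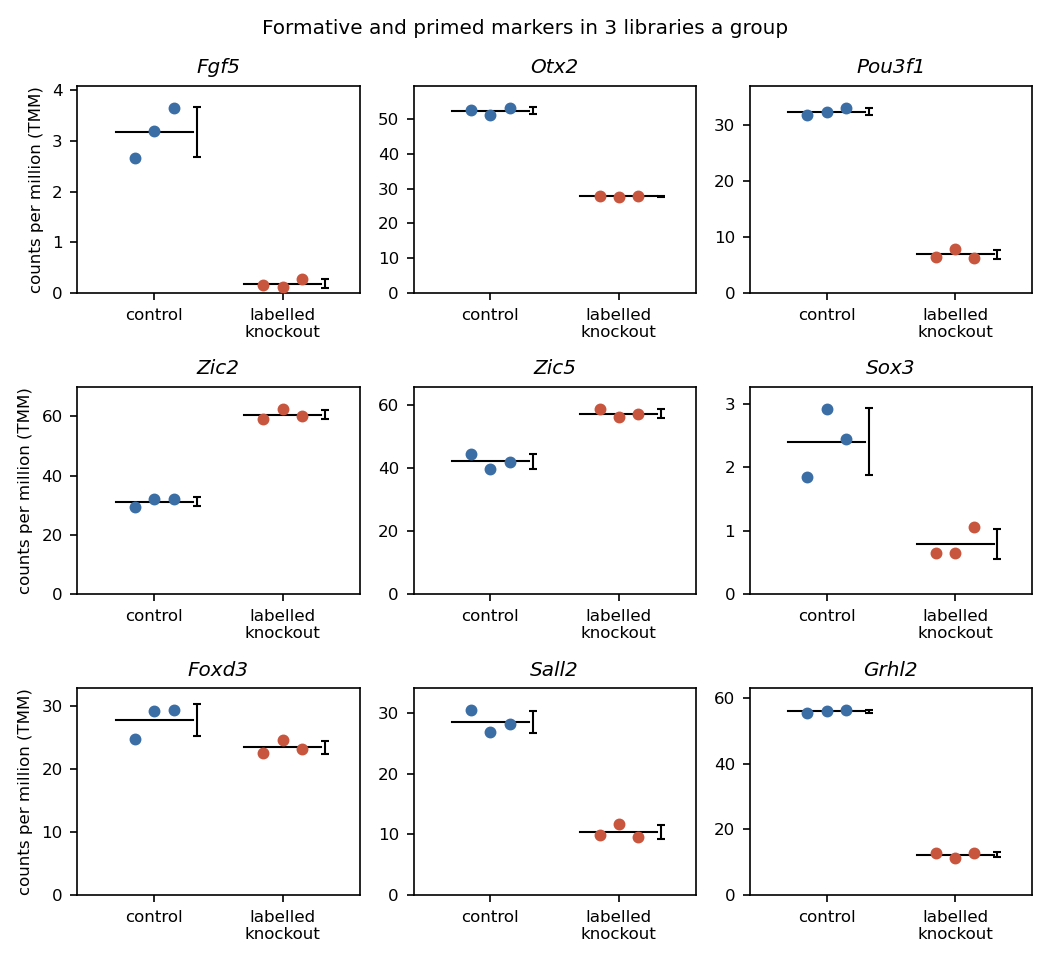
Counts per 1000000 after TMM scaling (vertical axis, from 0) of the 9 markers in each of the 3 control libraries and the 3 libraries labelled knockout, with 1 point a library, a line at the mean and a bar of 1 SD beside it. The groups are apart for every marker, closest for Foxd3 (27.8 against 23.5 cpm on average), and the lines labelled knockout are higher for Zic2 and Zic5 alone.

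Fgf5, the secreted ligand of the set, lies on chromosome 5 of mm10 from 98254184 to 98277030. It had 75, 88 and 100 fragments in control lines 1 to 3 and 4, 3 and 8 in lines labelled knockout 1 to 3. Every control library was thus far above every library of the other group, although the gene was scarce in both. The mean fell from 3.17 ± 0.49 to 0.19 ± 0.09 cpm (SD, n = 3 each), a log2 fold change of -4.03 ± 0.26 (SE, adjusted p = 6.47e-19). This is 6.14% of the control level, and 0.892% of all genes tested had a lower log2 fold change. The counting error of a library labelled knockout was 44.7% of its value on average, so the size of the fall is less certain than its direction, and leaving out any 1 library moved the log2 fold change within -4.47 to -3.81. The 250 bases before its start site in RefSeq (GRCm38.p6, chr5:98253934-98254183, plus strand) are shown because Fgf5 had the largest fall. They were 70.8% G and C and held 24 CpG dinucleotides, marked by capitals, where the median of all RefSeq start sites was 52.4% and 6. The windows of Foxd3, which changed least, and of Zic5, which rose, had 65.6% and 21 and 62.4% and 11. Those of Otx2 and Sall2, which fell, ranged from 28.0% to 64.4% and from 0 to 14.
Fgf5: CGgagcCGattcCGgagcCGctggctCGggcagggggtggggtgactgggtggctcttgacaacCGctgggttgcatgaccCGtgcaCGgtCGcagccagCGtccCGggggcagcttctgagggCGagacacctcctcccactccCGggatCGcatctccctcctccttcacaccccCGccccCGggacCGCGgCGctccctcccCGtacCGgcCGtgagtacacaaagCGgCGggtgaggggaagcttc

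Otx2 and Pou3f1 encode homeodomain factors. Otx2, on chromosome 14 from 48657677 to 48673819, had 1482, 1409 and 1458 fragments in control lines 1 to 3 and 730, 679 and 786 in lines labelled knockout 1 to 3. Its mean was 52.4 ± 0.95 cpm in the control lines and 27.8 ± 0.19 cpm in the others (SD, n = 3 each). These spreads, 1.82% and 0.688% of the mean, were below the counting errors of 2.63% and 3.70%. The log2 fold change was -0.91 ± 0.04 (SE, adjusted p = 3.68e-25), which left 53.1% of the control level. Pou3f1, also known as Oct6, on chromosome 4 from 124656807 to 124660655, had 892, 888 and 905 fragments in the control lines and 170, 193 and 178 in the lines labelled knockout. It fell further than Otx2, from 32.3 ± 0.63 to 6.89 ± 0.83 cpm (SD, n = 3 each), with a log2 fold change of -2.24 ± 0.06 (SE, adjusted p = 5.13e-33). RefSeq gives 4 start sites for Otx2. Of the 250-base windows before them, 1 held the letters TAATCC, to which OTX2 itself binds, on the reverse strand and starting 211 bases before the start site. These letters stood in 6.25% of the 32851 RefSeq windows on either strand. That window (GRCm38.p6, chr14:48665110-48665359, minus strand) is shown because it is the single window of a marker with any of the motifs searched, and its 14 CpG dinucleotides are in capitals.
Otx2: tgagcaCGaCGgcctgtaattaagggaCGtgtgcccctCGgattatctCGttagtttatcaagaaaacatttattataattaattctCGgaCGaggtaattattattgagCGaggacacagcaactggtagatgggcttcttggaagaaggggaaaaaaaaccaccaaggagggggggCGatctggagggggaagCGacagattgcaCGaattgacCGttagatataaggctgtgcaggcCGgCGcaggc

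Grhl2, a factor of the grainyhead family that keeps epithelial genes active, lies on chromosome 15 from 37233036 to 37363569. It had 1565, 1540 and 1549 fragments in control lines 1 to 3 and 335, 279 and 361 in lines labelled knockout 1 to 3. It fell from 56.0 ± 0.40 to 12.3 ± 0.85 cpm (SD, n = 3 each). The spread between control lines, 0.718% of the mean, was the lowest of the 9 markers. It was below the counting error of 2.54%, so it does not show that expression was more even than in other markers. The log2 fold change was -2.18 ± 0.05 (SE, adjusted p = 1.78e-37), close in size to that of Pou3f1 in the same fit. Antisense genes are annotated across Grhl2, and the most abundant, Gm16136, had at most 30 fragments in a library. The libraries keep the strand, so these fragments were counted apart.

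The zinc finger gene Sall2 and the SoxB1 gene Sox3 fell as well. Sall2, on chromosome 14 from 52311172 to 52328762, had 859, 740 and 774 fragments in the control lines and 259, 288 and 272 in the lines labelled knockout, a log2 fold change of -1.46 ± 0.06 (SE, adjusted p = 9.58e-26). Sox3, on chromosome X from 60891366 to 60893430, was as scarce as Fgf5, with 52, 80 and 67 fragments in the control lines and 17, 16 and 30 in the lines labelled knockout. The lines spread more widely in Sox3 than by counting alone. The coefficient of variation was 22.2% in the control group and 30.2% in the other, against counting errors of 12.3% and 21.8%. The log2 fold change of Sox3 was -1.58 ± 0.21 (SE, adjusted p = 4.37e-09), and leaving out any 1 library moved it within -1.87 to -1.42.

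Foxd3, which encodes a forkhead factor of pluripotent and neural crest cells, changed least. It lies on chromosome 4 from 99656299 to 99658622 and had 700, 803 and 807 fragments in control lines 1 to 3 and 591, 606 and 654 in lines labelled knockout 1 to 3. Control line 1, at 24.9 cpm, lay just above the highest line labelled knockout, at 24.6 cpm. The log2 fold change was -0.25 ± 0.05 (SE, adjusted p = 8.49e-05). Its direction was not stable to the processing: the longest transcript of Foxd3 is 65.1% G and C, and with an offset for GC content and length the log2 fold change was 0.17 (adjusted p = 0.00235), or 0.06 (adjusted p = 0.307) when the curve was fitted robustly. The other 8 markers kept their direction under every alternative that was run.

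Zic2 and Zic5 encode zinc finger factors of 1 family and stand beside each other on chromosome 14, Zic2 on the plus strand from 122475435 to 122479852 and Zic5 on the minus strand from 122456795 to 122465677. Zic2 had 831, 882 and 879 fragments in control lines 1 to 3 and 1548, 1537 and 1696 in lines labelled knockout 1 to 3. This was a rise from 31.2 ± 1.46 to 60.6 ± 1.64 cpm (SD, n = 3 each), with a log2 fold change of 0.96 ± 0.04 (SE, adjusted p = 3.48e-26). Zic5 had 1257, 1095 and 1153 fragments in the control lines and 1536, 1386 and 1615 in the lines labelled knockout, and its log2 fold change was 0.45 ± 0.04 (SE, adjusted p = 3.50e-14). Zic2 rose more than Zic5. The ratio of their counts in the same library was 0.661, 0.806 and 0.762 in control lines 1 to 3 and 1.01, 1.11 and 1.05 in lines labelled knockout 1 to 3, a difference of 0.51 between the groups on the log2 scale (two-sided exact permutation test, p = 0.1, which is the lowest that 3 against 3 lines can give). The 9757 bases between both genes hold the non-coding gene 2610035F20Rik. It lies on the minus strand, so it starts 235 bases before the annotated start of Zic2 and runs away from Zic2. It was named after its values were seen. It had 13, 13 and 4 fragments in the control lines and 56, 61 and 40 in the lines labelled knockout, a log2 fold change of 2.45 ± 0.28 (SE, adjusted p = 6.22e-11). The window before the RefSeq start site of Zic5 (GRCm38.p6, chr14:122465659-122465908, minus strand) is shown as that of a marker that rose, again with its CpG dinucleotides, 11 in number, in capitals.
Zic5: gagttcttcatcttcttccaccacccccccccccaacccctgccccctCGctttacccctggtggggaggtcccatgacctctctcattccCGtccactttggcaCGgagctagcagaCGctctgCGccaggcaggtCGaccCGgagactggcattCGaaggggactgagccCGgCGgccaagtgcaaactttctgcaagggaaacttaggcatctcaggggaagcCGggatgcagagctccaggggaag

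RefSeq start sites were found for Fgf5, Otx2, Zic5, Foxd3 and Sall2 and for none of Pou3f1, Zic2, Sox3 and Grhl2 in the sequences used here. On either strand of the 9 windows, CAGGACCT, the core of the motif known for ZBTB24, was found 0 times, as were the palindrome AACCGGTT of grainyhead factors and the octamer ATTTGCAT of POU factors. Among all RefSeq windows, 1.63%, 0.116% and 1.6% held these letters, so few matches could be found in 9 windows of any kind. Bases outside the windows were not searched.

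**Figure D2:**
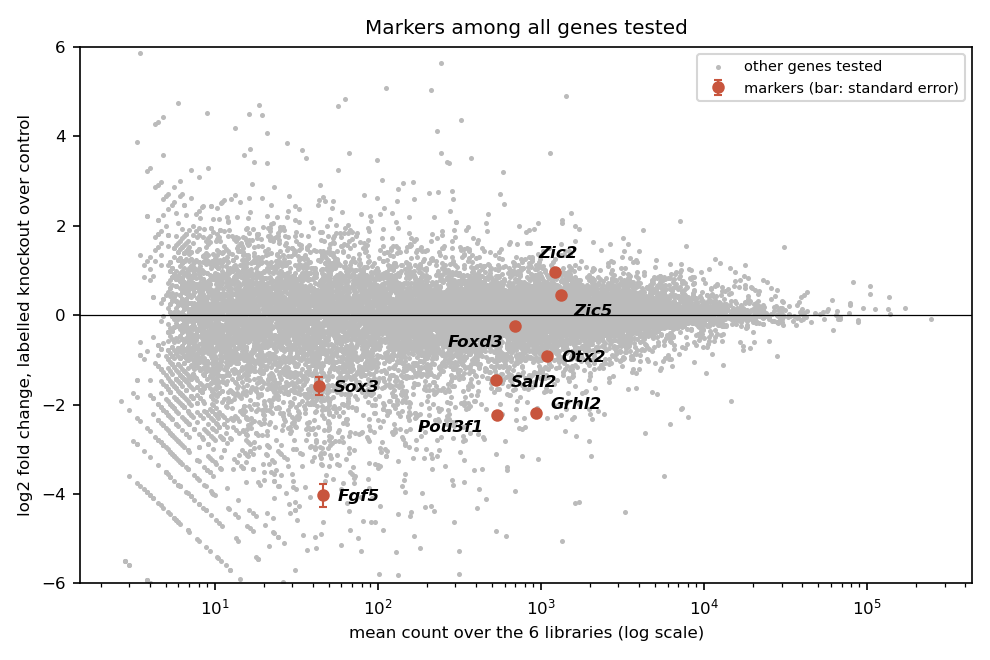
Log2 fold change (labelled knockout over control, vertical axis) against the mean count over the 6 libraries (horizontal axis, log scale) for all genes tested in grey and for the 9 markers in red with bars of 1 standard error; 38 genes beyond 6 in size are not drawn. Fgf5 and Sox3 stand among scarce genes, and Zic2 and Zic5 are the markers above 0.

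Levels per kilobase of the longest annotated transcript and per 1000000 counts, which allow genes to be compared, ordered the markers differently in each group. In the control lines Otx2 was highest at 20.2 ± 0.37, followed by Zic2 at 12.8 ± 0.60, Foxd3 at 12.0 ± 1.10 and Grhl2 at 11.3 ± 0.08 (SD, n = 3 each). Foxd3 overlapped both of these neighbours in the order. Zic5 at 8.85 ± 0.51 and Pou3f1 at 8.40 ± 0.16 overlapped each other too, and Sall2 followed at 5.55 ± 0.35. Fgf5 at 1.27 ± 0.20 and Sox3 at 1.16 ± 0.26 were lowest and overlapped. In the lines labelled knockout Zic2 led at 24.8 ± 0.67, ahead of Zic5 at 12.05 ± 0.27, Otx2 at 10.7 ± 0.07 and Foxd3 at 10.1 ± 0.44. Grhl2 followed at 2.49 ± 0.17, then Sall2 at 2.02 ± 0.22 and Pou3f1 at 1.79 ± 0.22, and the last 2 overlapped. Sox3 at 0.38 ± 0.12 and Fgf5 at 0.07 ± 0.03 remained lowest. The order depends on the length used. With the union of all annotated exons, 4 of the 9 markers kept their rank in the control lines, Otx2 among them. Ranked among 16706 genes tested, Fgf5 moved from the percentile 31.1 in the control lines to 4.82 in the lines labelled knockout, and Zic2 from 69.9 to 82.0.

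Related genes of the same families were called about as often as all genes. Of 20 relatives, 14 passed the filter, 5 were higher (background 34.4%) and 5 lower (background 35.2%), with a median log2 fold change of -0.05. In the grainyhead family, with longest transcripts as lengths, Grhl2 made up 46.3% ± 0.77 of the summed level per length of Grhl1, Grhl2 and Grhl3 in the control lines and 14.7% ± 0.94 in the lines labelled knockout (SD, n = 3 each), whereas Grhl3 made up 36.8% ± 1.37 and 69.4% ± 0.73. Which of them was higher in the control lines depends on that length: with the union of exons Grhl2 was at 6.51 ± 0.05 there, below Grhl3, which has 1 annotated transcript, at 9.02. Grhl3 itself rose by a log2 fold change of 0.38 ± 0.05 (SE, adjusted p = 9.45e-10) and Grhl1 fell by 0.62 ± 0.07 on the log2 scale (SE, adjusted p = 3.79e-11). Pou3f1 was most of its family in both groups, at 96.9% ± 0.63 and 90.6% ± 4.68, and Otx2 and Foxd3 were over 99% of theirs. Sox3 was a small part of the SoxB1 group beside Sox2, at 0.659% ± 0.14 and 0.161% ± 0.04. Sox2, a core pluripotency factor, rose by 0.43 ± 0.02 on the log2 scale (SE, adjusted p = 5.74e-21) while Sox3 fell. Sall2 likewise was 4.23% ± 0.20 and 1.49% ± 0.14 of the Sall family, where Sall1 rose by 0.39 ± 0.02 (SE, adjusted p = 2.21e-19).

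**Figure D3:**
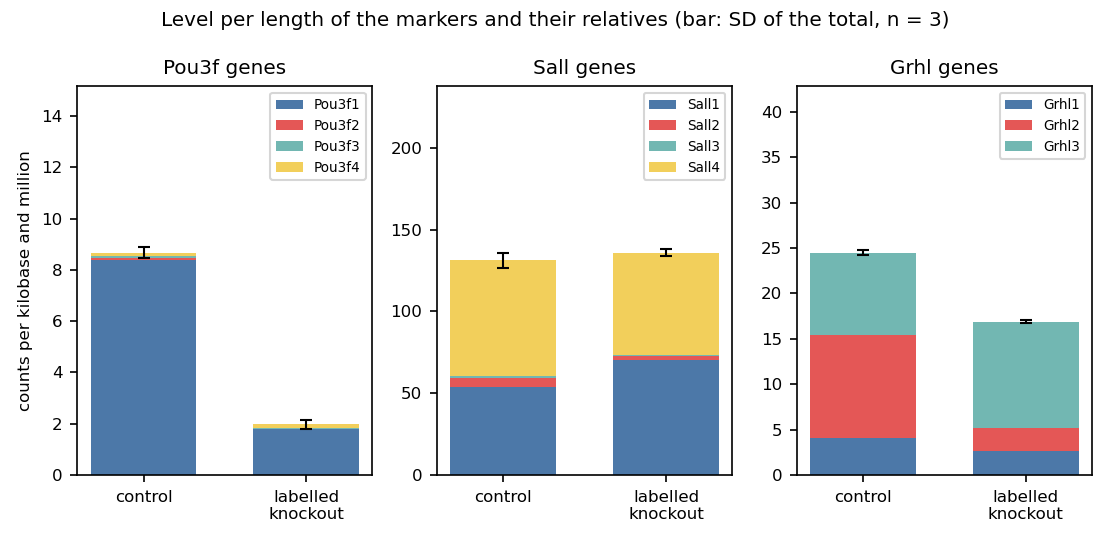
Level per kilobase of transcript and 1000000 counts (vertical axis, from 0), as the mean of 3 libraries, for the members of the Pou3f, Sall and Grhl families, stacked, with bars of 1 SD of the family's total. Lengths are those of the longest transcripts. The Grhl total falls from 24.5 to 16.9 with a smaller part of Grhl2, and Pou3f1 makes up most of the Pou3f total in both groups.

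Of 17 other genes of the formative and primed program, 11 were lower (background 35.2%) and 5 higher (background 34.4%), and the median log2 fold change was -0.59. Those with the largest changes were Cldn6, a tight junction gene, at -2.60 ± 0.04 (SE, adjusted p = 4.25e-43), the de novo DNA methyltransferase gene Dnmt3b at -2.07 ± 0.03 (SE, adjusted p = 6.72e-47) and the kinase gene Pim2 at -1.97 ± 0.04 (SE, adjusted p = 1.12e-38). Etv4, a target of FGF signalling, went the other way at 1.27 ± 0.03 (SE, adjusted p = 3.21e-37). Naive pluripotency genes were mostly higher, 11 of 14 (background 34.4%), with 3 lower (background 35.2%) and a median log2 fold change of 0.90. Klf4 had the largest rise at 1.90 ± 0.03 (SE, adjusted p = 2.95e-44), and Tfcp2l1 at 1.56, Tbx3 at 1.45 and Prdm14 at 1.36 followed. Zfp42, also known as Rex1, a naive marker, was chosen after its values were seen. It had a log2 fold change of -0.77 ± 0.02 (SE, adjusted p = 1.23e-32), against the direction of most of its list, as Zic2 and Zic5 went against most of theirs. The 7 core genes split into 3 higher (background 34.4%) and 4 lower (background 35.2%). They lay between -0.44 in Lin28a and 0.43 in Sox2, with a median of -0.15.

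All 12 epithelial genes of the kind that GRHL2 acts on were lower (background 35.2%), with a median log2 fold change of -2.08. The keratin genes Krt8 at -4.41 ± 0.04 (SE, adjusted p = 2.47e-52) and Krt18 at -4.19 ± 0.05 (SE, adjusted p = 1.44e-48) and the claudin gene Cldn7 at -3.44 ± 0.08 (SE, adjusted p = 1.04e-36) fell by more than Grhl2 itself. Krt8 and Krt18 are also expressed in trophoblast and other simple epithelia, and E-cadherin (Cdh1), which mESCs express too, fell by 0.70 ± 0.02 on the log2 scale (SE, adjusted p = 6.32e-31).

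**Figure D4:**
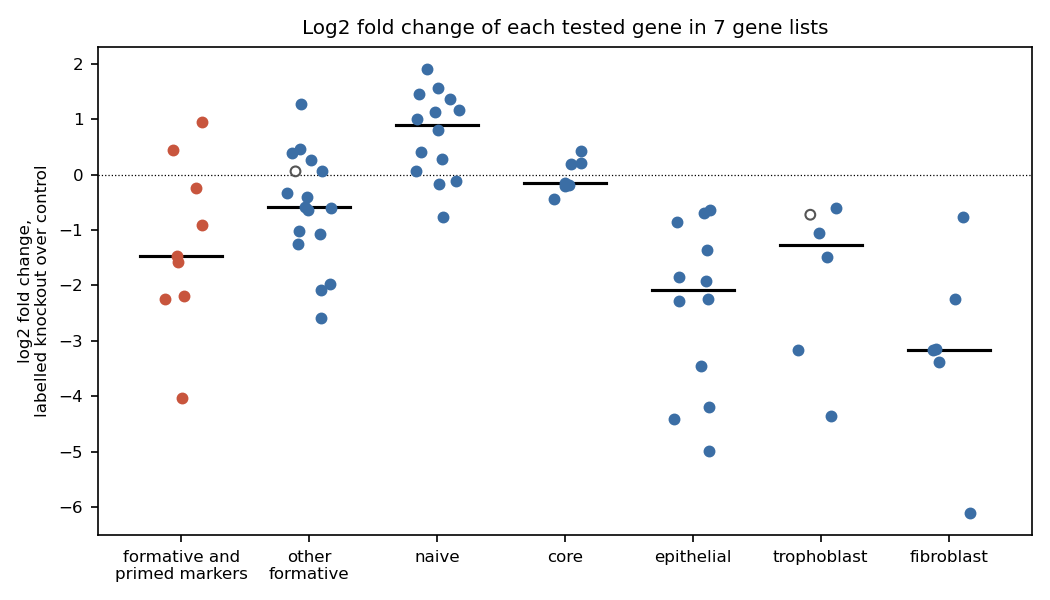
Log2 fold change (labelled knockout over control, vertical axis) of each tested gene of 7 lists, with filled points for genes called at an FDR of 0.05 or less, open points for the others and a line at the median. The markers have a median of -1.46, the naive genes one of 0.90 and the epithelial genes one of -2.08. The lowest fibroblast point is Postn, whose place depends on the prior count, since it had 0 counts in the libraries labelled knockout.

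Fibroblast and trophoblast markers moved with the same grouping of the lines, whereas the neural, primitive streak and primitive endoderm markers, given at the end, split in direction. All 6 fibroblast markers that passed the filter, of 7 listed, were lower in the lines labelled knockout (background 35.2%). The summed level of the list was 56.0 to 59.5 cpm in control lines and 9.53 to 10.1 cpm in the others. Col1a1 alone had 41.1 ± 2.18 and 3.93 ± 0.49 cpm (SD, n = 3 each), whereas Lum had 0 counts in every library and Postn 0 in every library labelled knockout. Of 6 trophoblast markers 5 were lower (background 35.2%) and 0 higher (background 34.4%). Their sum was 17.6 to 18.7 cpm in control lines and 4.63 to 5.97 cpm in the others. Hand1 fell by 3.15 ± 0.15 on the log2 scale (SE, adjusted p = 1.87e-24), and Cdx2 and Elf5, which define the trophoblast stem cell, had at most 20 and 15 fragments in any library. The part of such cells in the falls of Grhl2, the epithelial genes and the other markers was not tested.

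The markers are spread over 5 chromosomes, with 4 of the 9 on chromosome 14. Genes averaging 10 counts or more had a median log2 fold change of 0.04 on chromosome 14 (n = 533) and between -0.03 and 0.01 on chromosomes 4, 5, 15 and X. Neighbours within 1000000 bases on either side were counted if they averaged 10 counts or more. Their median was 0.27 for Otx2 (6 genes), 0.16 for Pou3f1 (27), 0.24 for Grhl2 (12), 0.15 for Sall2 (13) and 0.23 for Foxd3 (14). For Fgf5 and Sox3 only 3 neighbours each could be counted, with medians of -0.03 and -0.36. The 13 neighbours of the Zic pair, each gene counted for the other, had a median of 0.10.

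Over the 6 libraries, the gene most like a marker was found by the smallest distance between log2(cpm + 1) values centred on each gene's mean, among genes averaging 100 counts or more. It was Laptm4b for Otx2 (distance 0.04), Rcor3 for Zic2 (0.06) and Has2 for Grhl2 (0.08). Within 2 times these distances lay 22, 18 and 7 genes in that order. For the others it was Irak1bp1 for Zic5 (0.04), Tbcc for Foxd3 (0.07), Gm20625 for Sall2 (0.14), Emb for Pou3f1 (0.15), Bmp1 for Fgf5 (0.18) and Fkbp6 for Sox3 (0.22). The distance weighs low values less, so that a match can differ in fold: the log2 fold change of Has2 was -2.995 against -2.18 for Grhl2, and that of Bmp1 was -2.09 against -4.03 for Fgf5.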

How the data were processed

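The authors sequenced the libraries in pairs of reads, removed rRNA reads with Bowtie2 2.1.0, mapped the rest to mm10 with TopHat 2.0.10 and counted fragments per GENCODE M4 gene with htseq-count 0.6.1 (union mode, sense strand). Fragments at multiple genes or locations were discarded, which lowers the counts of genes that have close copies. The deposited values are these raw counts, neither normalized nor filtered. Columns were matched to samples by title, and 0 were left over.

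Symbols, coordinates, lengths and GC content came from GENCODE M21 on the same build by Ensembl identifier, which matched 42425 of 43309 genes. The 16823 genes that reached 10 counts in 1 or more libraries were tested with edgeR 4.0.16 in R 4.3.3 (TMM, glmQLFit, glmQLFTest, Benjamini-Hochberg FDR of 0.05 or less). Standard errors (SE) are the size of the log2 fold change divided by the square root of F. A cpm value is the count per 1000000 of the TMM-scaled total. DESeq2 1.42.0 was an alternative. The markers, lists and rules were chosen with earlier results of these data known. Named besides the markers were at most 4 genes of a list with the largest changes among those called at a mean of at least 50 counts, Zbtb24, and the gene most like each marker. Some genes that the rule names are not reported here. Pou5f1, Zfp42, Cdh1, Cdx2, Elf5, Lum, Postn, Gm16136 and 2610035F20Rik fall outside this rule and were chosen after their values were seen. Libraries of a group differed beyond sampling noise (highest p = 3.57e-34, chi-square test across genes) and each counted as 1 replicate. With so many genes that p is low even for a small excess. The chi-square per gene was 1.14 to 2.24, where counting alone gives about 1. The common dispersion of edgeR, its estimate of spread beyond counting, was 0.000402. p-values measure the spread between these clones. Counting intervals and errors do not cover PCR duplicates. Promoter sequences are RefSeq's (GRCm38.p6), and 5 of the 9 markers had a match.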

Additional observations from a re-analysis of the deposited data

How the results depend on the processing

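Of the 9 markers, 8 kept their direction under all 17 alternatives. Sizes were less stable. With an offset for GC content and length, the log2 fold change moved from -2.24 to -1.81 in Pou3f1 and from -1.58 to -1.15 in Sox3. Zic2 moved from 0.96 to 1.25, Grhl2 only from -2.18 to -2.10, and the median of the 9 from -1.46 to -1.15. Foxd3 turned to 0.168 with an offset for GC content and length, to 0.169 with that offset and the replicate block, and to 0.0573 with a robust offset, which was added after the data were seen and under which the other 8 markers were called and Foxd3 was not (adjusted p = 0.307). The plain offset moved the median of all genes to 0.0962 and the split of the calls from 5780 higher and 5917 lower to 7349 and 4715, and it left 1 naive and 2 core genes lower, as it did with the block. When a log2 fold change of at least 1 was also required, 2865 genes were called (877 higher, 1988 lower), 5 markers (0 higher), 7 other formative genes (1 higher, 6 lower), 7 naive genes (7 higher, 0 lower), 0 core genes (0 higher, 0 lower) and 4 family relatives (1 higher, 3 lower), and Zbtb24, at 0.99, was no longer called. With at least 10 counts in 3 libraries, 3 relatives were lower. With exon unions as lengths, 4 markers kept their rank. DESeq2 called 10326 genes and all 9 markers. With each library left out in turn, 11059 to 11304 genes were called and all 9 markers each time.

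The replicate numbers were not taken to pair the lines. Deviations from the group means correlated at 0.0148 to 0.0744 between libraries of the same number and at -0.0703 to 0.051 between the others. These values were small, and 3 lines a group cannot decide whether lines were paired. With the replicate block 11801 genes and all 9 markers were called. Fgf5 and Sox3 are limited by depth, with 3 to 8 and 16 to 30 fragments in the libraries labelled knockout.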

Other observations

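Markers of the streak and primitive endoderm were scarce in both groups. Neither these nor the neural markers were called more often in either direction than all genes tested, of which 34.4% were higher and 35.2% lower. Of 7 primitive streak markers, 6 passed the filter, 2 were higher and 2 lower in the lines labelled knockout, and the summed level was 8.15 to 9.47 cpm in control lines and 9.17 to 10.3 cpm in the others. Eomes, a T-box factor of the streak, had a log2 fold change of 0.40 ± 0.10 (SE, adjusted p = 6.76e-04, edgeR). Of 6 primitive endoderm markers 1 was higher and 2 lower, with sums of 11.3 to 12.9 and 10.6 to 12.8 cpm. Of 9 neural markers 6 passed the filter, 2 were higher and 2 lower. Nes, which encodes the intermediate filament nestin, fell by 2.33 ± 0.04 on the log2 scale (SE, adjusted p = 2.12e-42), while Tubb3, a tubulin gene, rose by 0.42 ± 0.03 (SE, adjusted p = 8.88e-20).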
